A study of Homo sapiens with 12 samples.

Results

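Several miRNAs are encoded inside the HOX gene clusters, which are active in many acute myeloid leukemias (AML). The 5 mature miRNAs described here, hsa-miR-10a-5p, hsa-miR-10a-3p, hsa-miR-10b-5p, hsa-miR-196a-5p and hsa-miR-196b-5p, were 5 of the 1204 in the count table, and they were chosen from a list of HOX-cluster miRNAs with the counts of these libraries already known. Their levels and differences are therefore given as a description, without p-values. The small RNA libraries came from 2 human AML lines, MV4-11 and Molm-14. Each line has an internal tandem duplication of FLT3 and a rearrangement of KMT2A. In each line, MPC1, a subunit of the carrier that brings pyruvate into mitochondria, had been deleted by CRISPR/Cas9 from a lentiviral construct with a GFP selection marker and a single guide RNA (MPC1 KO), or the cells carried the Empty Vector (EV). The 12 libraries form 4 groups of 3, namely MV4-11 EV, MV4-11 MPC1 KO, Molm-14 EV and Molm-14 MPC1 KO. With 1 guide in each line, an effect of the deletion cannot be told apart from an effect of that guide, and the sources used here do not say whether the cells were a clone or a pool. MPC1 mRNA is outside what small RNA libraries measure, and the deletion was not checked here. The paper reported lower MPC1 transcripts by qPCR in the MPC1 KO cells of both lines.

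HOX genes are laid out in 4 clusters, A to D, and encode transcription factors that set position along the body axis and are active in blood stem and progenitor cells. KMT2A fusion proteins keep HOXA genes active. The miR-10 hairpins lie near the HOX4 genes and the miR-196 hairpins near the HOX9 genes, and each family targets HOX and other mRNAs through its seed, bases 2 to 8 from the 5′ end. A miRNA hairpin yields a 5p and a 3p strand, of which usually 1 is kept and the other is degraded.

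The mature sequences from RefSeq (GRCh38) are shown because they decide which members can be told apart in sequencing. The seed is in capitals, and 4 of the 5 members were matched in that table. hsa-miR-10b-5p is the remaining member.
hsa-miR-10a-5p: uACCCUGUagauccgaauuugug
hsa-miR-10a-3p: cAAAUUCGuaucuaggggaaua
hsa-miR-196a-5p: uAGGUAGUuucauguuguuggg
hsa-miR-196b-5p: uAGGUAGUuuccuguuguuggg
The miR-196 sequences share the seed and differ at 1 of 22 bases, A12C, with hsa-miR-196a-5p first and positions counted from 1 at the 5′ end. No other human mature miRNA in the table has that seed. The same 7 letters stand 1 base further in, at bases 3 to 9, in 8 of the 9 let-7 and miR-98 sequences examined, as here in capitals.
hsa-let-7a-5p: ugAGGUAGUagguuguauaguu
A well known target of miR-196 is HOXB8, and the best ungapped match to hsa-miR-196a-5p in its canonical GENCODE transcript is shown to place the base that differs. It lies in the 3′ UTR on the minus strand of GRCh38, chr17:48612770-48612791, written as DNA with Watson-Crick pairs in capitals.
HOXB8 site: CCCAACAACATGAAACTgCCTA
Of its 22 bases, 21 pair with hsa-miR-196a-5p by Watson-Crick rules and 1, the lower-case g, as a G:U pair. With hsa-miR-196b-5p 20 pair, 1 is a G:U pair and 1 is unpaired. The unpaired base is a T of the site, opposite the base that differs, and is in capitals above because it pairs with hsa-miR-196a-5p. No mRNA was measured in these libraries.

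The hairpins lie in different clusters, and a mature sequence can come from more than one of them. MIR10A (HOXB cluster, chr17:48579838-48579947 on the minus strand, 110 bases) lies in an intron of HOXB3 and in an exon of a lncRNA, 1487 bases from HOXB4. MIR196A1 lies in the same cluster and on the same strand, chr17:48632490-48632559, in an intron of HOXB7, with 52.5 kb between the hairpins. MIR196A2 (HOXC cluster, chr12:53991738-53991847, plus strand) lies in an intron of HOXC6, 1458 bases from HOXC10. Both MIR196A1 and MIR196A2 hold the same hsa-miR-196a-5p sequence, so its counts do not separate HOXB from HOXC. MIR196B (HOXA cluster, chr7:27169480-27169563, minus strand) overlaps an annotated exon of HOXA9, 1041 bases from HOXA10. MIR10B (HOXD cluster, chr2:176150303-176150412, plus strand) lies in an intron of HOXD3, 1137 bases from HOXD4. How reads that fit both miR-10a and miR-10b, or both miR-196a and miR-196b, were counted is not given in the sources used here, so the less abundant member of each pair is uncertain.

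The libraries held between 3870104 and 8683456 counts (median 5107201), and 659 miRNAs passed the filter on low counts. Levels are CPM, the counts of a miRNA as a rate of the library's size, after TMM scaling. TMM sets the library sizes on the premise that most miRNAs do not change. Between the EV cells of the 2 lines, 61.9% of the miRNAs tested differed by edgeR, 33.5% higher and 28.4% lower in Molm-14. The premise is thus not met for that comparison, and values under other scalings are given below. The blood cell miRNAs hsa-miR-142-3p, hsa-miR-142-5p, hsa-miR-223-3p and hsa-miR-155-5p lay between 2678 and 49607 CPM in every library. The lymphoid-enriched hsa-miR-150-5p was between 1.41 and 4.003 CPM, both erythroid markers were at 6.70 CPM or lower, and liver hsa-miR-122-5p was between 4.46 and 9.58 CPM. Of the 3 epithelial markers, hsa-miR-205-5p and hsa-miR-375 were at most 1.60 CPM, and hsa-miR-200c-3p lay between 103.8 and 256.4 CPM. In summed level, the 5 blood cell markers ran from 81536 to 87691 CPM in Molm-14 EV cells, and higher, from 97628 to 106018 CPM, once MPC1 was deleted. In MV4-11 the EV libraries ran from 66214 to 79249 CPM and the MPC1 KO libraries from 68143 to 70819 CPM. Their part in the results below was not tested. All 5 members passed the filter, but hsa-miR-10a-3p and hsa-miR-10b-5p reached its minimum of 10 counts in Molm-14 libraries only.

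hsa-miR-196b-5p, the HOXA member, was by far the most abundant of the 5 in every group. Its counts were 18938, 8923 and 8941 in MV4-11 EV and 12226, 14925 and 14815 in MV4-11 MPC1 KO. In Molm-14 there were 10995, 9051 and 9599 counts in EV and 10990, 10354 and 8824 in MPC1 KO. Scaled, its level was 2156 ± 143 CPM (SD, n = 3) in MV4-11 EV and 2257 ± 139 CPM (SD, n = 3) in Molm-14 EV, and the libraries of the 2 lines overlapped. The level was thus within the replicate spread in the EV cells of both lines, and the log2 difference, Molm-14 minus MV4-11, was 0.07 (standard error 0.09). With upper-quartile factors, total counts or a filter at a mean of 100 counts its sign turned, to -0.11 at the lowest. By mean level among all 1204 miRNAs it stood at place 48 in MV4-11 EV and 51 in Molm-14 EV.

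hsa-miR-10a-5p, the HOXB member, was far higher in Molm-14 than in MV4-11. The MV4-11 EV libraries had 59, 29 and 34 counts and the Molm-14 EV libraries 2044, 1506 and 1825. Its level was 7.30 ± 0.792 CPM (SD, n = 3) in MV4-11 EV and 406.8 ± 4.45 CPM (SD, n = 3) in Molm-14 EV, which is 55.8-fold higher, with no overlap. The log2 difference was 5.80 (standard error 0.15). It stood at place 355 of 1204 in MV4-11 EV and at place 106 in Molm-14 EV.

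The passenger strand of the same hairpin, hsa-miR-10a-3p, was nearly missing from MV4-11. The EV libraries of that line had 1, 0 and 0 counts, and those of Molm-14 had 36, 29 and 37. The summed counts give a ratio of 125.9 relative to library totals, with an exact 95% counting interval from 22.1 to 5019. Where no read was found, a library allows up to 3 counts, or 0.766 CPM in MV4-11 EV replicate 3.

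hsa-miR-10b-5p, from the HOXD cluster, was also higher in Molm-14. It had 4, 5 and 4 counts in MV4-11 EV and 59, 38 and 39 in Molm-14 EV, levels of 0.859 ± 0.334 and 10.2 ± 1.503 CPM (SD, n = 3 each), an 11.9-fold difference. The log2 difference was 3.67 (standard error 0.35).

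hsa-miR-196a-5p, which HOXB and HOXC share, had a small difference between the lines. It had 92, 41 and 24 counts in MV4-11 EV and 61, 51 and 72 in Molm-14 EV. Its level was 8.74 ± 2.77 CPM in MV4-11 EV and 13.995 ± 2.04 CPM in Molm-14 EV (SD, n = 3 each), a 1.60-fold difference with a log2 value of 0.64 (standard error 0.27). The libraries of the lines did not overlap. The difference passed the threshold narrowly and did not pass it under 9 of 19 alternatives, among them DESeq2 (0.62), upper-quartile factors (0.46) and the fit without MV4-11 EV replicate 3 (0.42).

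Of the 5 members, 4 passed an adjusted p of 0.05 as higher in Molm-14 EV than in MV4-11 EV in the quasi-likelihood test of edgeR, where 33.5% of all 659 miRNAs tested did so. The same 4 had all 3 Molm-14 EV libraries above all 3 MV4-11 EV libraries, as did 34.9% of all tested. Of these 4, hsa-miR-10a-3p and hsa-miR-10b-5p reached the filter's minimum count in Molm-14 libraries only. They entered the test through the line in which they were higher, so their calls are not independent of the filter. Since the members were also chosen by their levels in these libraries, nothing is read from these shares. The plot of levels by library shows the 5 members side by side.

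**Figure D1:**
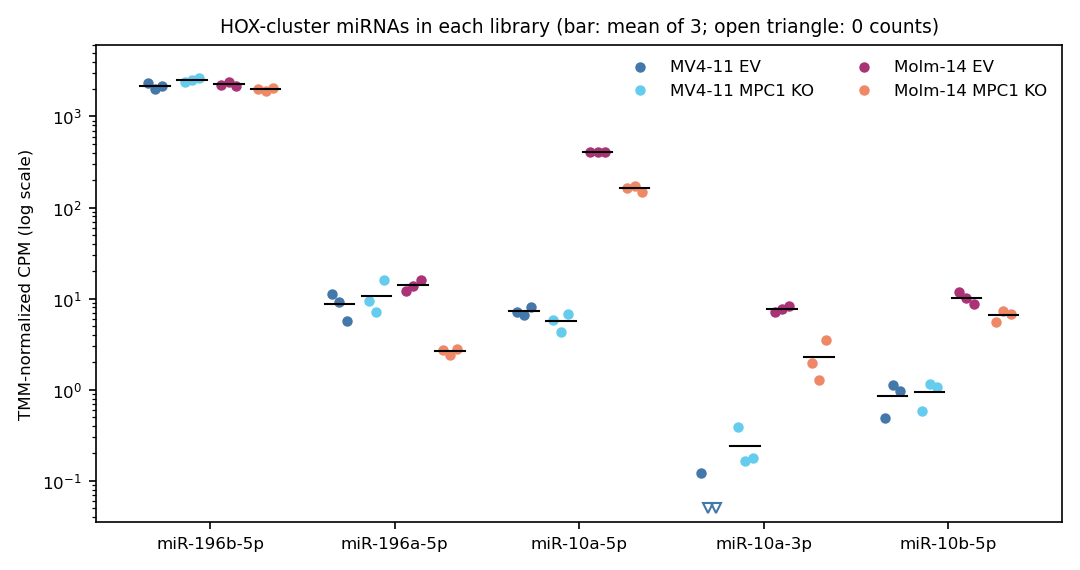
TMM-normalized CPM of the 5 members on a log axis, 1 point per library, with the mean of each group as a bar and libraries with 0 counts as open triangles at the bottom. miR-196b-5p lies between 1899 and 2616 CPM in all 12 libraries, miR-10a-5p lies near 407 CPM in Molm-14 EV against 7.30 CPM in MV4-11 EV, and miR-196a-5p is lowest in Molm-14 MPC1 KO.

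The order of the members by level differed between the lines and changed with the deletion in Molm-14. In MV4-11 EV, hsa-miR-196b-5p was followed by hsa-miR-196a-5p and hsa-miR-10a-5p, whose libraries overlapped, and then by hsa-miR-10b-5p and hsa-miR-10a-3p, and in MV4-11 MPC1 KO the order was the same with no neighbours overlapping. In Molm-14 EV, hsa-miR-10a-5p stood next to hsa-miR-196b-5p and above hsa-miR-196a-5p, with hsa-miR-10b-5p and hsa-miR-10a-3p below them and no neighbours overlapping. In Molm-14 MPC1 KO, hsa-miR-10b-5p stood above hsa-miR-196a-5p, and hsa-miR-196a-5p and hsa-miR-10a-3p, the lowest, overlapped. Together the 5 members made up between 0.196% and 0.277% of a library's counts. hsa-miR-196b-5p held between 99.1% and 99.5% of that sum in MV4-11 libraries. In Molm-14 it held between 83.0% and 84.8% in EV and between 91.2% and 92.7% in MPC1 KO cells.

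In Molm-14, the members with the deeper falls upon MPC1 deletion were hsa-miR-196a-5p and both strands of miR-10a. hsa-miR-196a-5p had 61, 51 and 72 counts in the EV and 15, 13 and 12 in the MPC1 KO libraries. Its level went from 13.995 ± 2.04 to 2.63 ± 0.222 CPM (SD, n = 3 each), 5.32-fold lower, and every MPC1 KO library was below every EV library. The fitted log2 fold change was -2.40 (standard error 0.32).

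hsa-miR-10a-5p fell in the same libraries from 2044, 1506 and 1825 counts to 917, 933 and 637. That is 406.8 ± 4.45 CPM in EV and 161.8 ± 11.2 CPM in MPC1 KO (SD, n = 3 each), 2.51-fold lower, with a log2 fold change of -1.33 (standard error 0.11). Its level in Molm-14 MPC1 KO was still 28.7-fold that in MV4-11 MPC1 KO, where it was 5.63 ± 1.19 CPM (SD, n = 3). hsa-miR-10a-3p had 36, 29 and 37 counts in EV and 11, 7 and 15 in MPC1 KO, 7.75 ± 0.569 and 2.26 ± 1.14 CPM (SD, n = 3 each), with a log2 fold change of -1.81 (standard error 0.34). These strands come from 1 hairpin and are not separate measurements of 2 genes.

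The other members moved less. hsa-miR-10b-5p had 59, 38 and 39 counts in EV and 31, 40 and 29 in MPC1 KO, with a log2 fold change of -0.64 (standard error 0.25). hsa-miR-196b-5p was at 2257 ± 139 CPM in EV and 1981 ± 85.0 CPM in MPC1 KO (SD, n = 3 each), with a log2 fold change of -0.19 (standard error 0.09). For both, every MPC1 KO library lay below every EV library in scaled level, but neither passed the threshold.

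Thus 3 of the 5 passed as lower in Molm-14 MPC1 KO, where 4.10% of all tested did so, and 2 did not pass. In all 5 the libraries did not overlap in that direction, which held for 14.9% of all tested. The members were chosen with these values known, and the share is given as background only.

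In MV4-11, no member (0 of 5) passed the threshold upon MPC1 deletion by edgeR, DESeq2 or limma-voom, and 1 had an unadjusted p under 0.05 in each. Of all tested, 3.03% passed in either direction by edgeR, which is 20 miRNAs, with 12 without MV4-11 MPC1 KO replicate 1, 38 without Molm-14 EV replicate 2 and 34 without Molm-14 EV replicate 3. hsa-miR-196a-5p had 92, 41 and 24 counts in EV and 48, 43 and 90 in MPC1 KO, and the libraries overlapped. Its log2 fold change was 0.26 (standard error 0.27), and it was -0.14 without MV4-11 MPC1 KO replicate 3, the library with 90 counts.

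hsa-miR-10a-5p had 59, 29 and 34 counts in EV and 30, 26 and 38 in MPC1 KO, with a log2 fold change of -0.37 (standard error 0.19), and the libraries overlapped. hsa-miR-10b-5p had 3, 7 and 6 counts in MPC1 KO, and its log2 fold change of 0.27 (standard error 0.49) became -0.14 without MV4-11 EV replicate 1. hsa-miR-10a-3p had 2, 1 and 1 counts in MPC1 KO, and the ratio of summed counts to EV was 4.28 with a counting interval from 0.423 to 211. At this depth a change of miR-10a-3p was not detectable in MV4-11.

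hsa-miR-196b-5p was the member with the most counts in MV4-11. Its level was 2156 ± 143 CPM in EV and 2496 ± 120 CPM in MPC1 KO (SD, n = 3 each), with a log2 fold change of 0.21 (standard error 0.09). The groups did not overlap, with MPC1 KO higher, for hsa-miR-196b-5p and hsa-miR-10a-3p, as for 10.3% of all tested. For hsa-miR-10a-3p this rests on at most 2 counts a library.

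**Figure D2:**
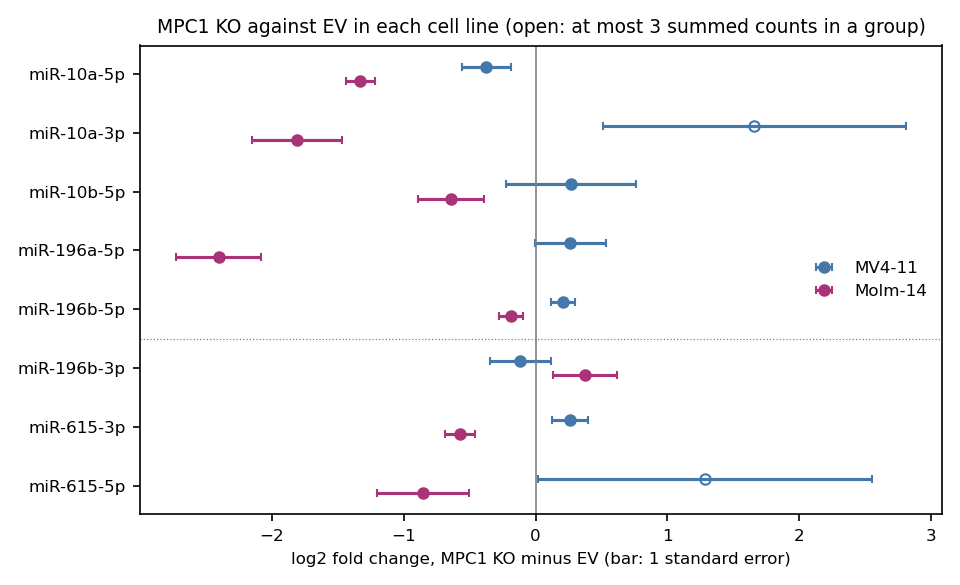
Log2 fold change of MPC1 KO minus EV with 1 standard error to each side, for the 5 members above the dotted line and 3 other arms of HOX-cluster hairpins under it, in MV4-11 and Molm-14. miR-196a-5p sits at -2.40 in Molm-14 and at 0.26 in MV4-11, while miR-10a-5p is below 0 in both lines, and open points rest on at most 3 summed counts in a group.

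The effect of the deletion was then compared between the lines by subtracting the log2 fold change in MV4-11 from that in Molm-14. For hsa-miR-196a-5p the result was -2.67 (standard error 0.42) and for hsa-miR-10a-5p -0.96 (standard error 0.22), and these 2 of the 5 members passed as lower by edgeR, where 4.25% of all tested did. With upper-quartile factors the split over all tested turned, from 16 higher and 28 lower to 31 higher and 13 lower. Without MV4-11 MPC1 KO replicate 3, hsa-miR-10a-5p had a difference of -0.78 and did not pass. The differences of hsa-miR-196b-5p (-0.40, standard error 0.13), hsa-miR-10b-5p (-0.91, standard error 0.56) and hsa-miR-10a-3p (-3.47, standard error 1.26) did not pass by edgeR. With DESeq2 hsa-miR-196b-5p passed (-0.40), and with limma-voom hsa-miR-10a-3p passed (-3.13). That of hsa-miR-10a-3p rests on 1 count in MV4-11 EV and 4 in MV4-11 MPC1 KO. In mean level, hsa-miR-196a-5p changed its order between the lines. Among EV cells it was higher in Molm-14, a difference that did not pass the threshold under 9 of 19 alternatives. Among MPC1 KO cells it was 4.10-fold lower in Molm-14. The levels there were 2.63 ± 0.222 CPM in Molm-14 and 10.8 ± 4.53 CPM in MV4-11 (SD, n = 3 each), and that comparison was not tested.

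**Figure D3:**
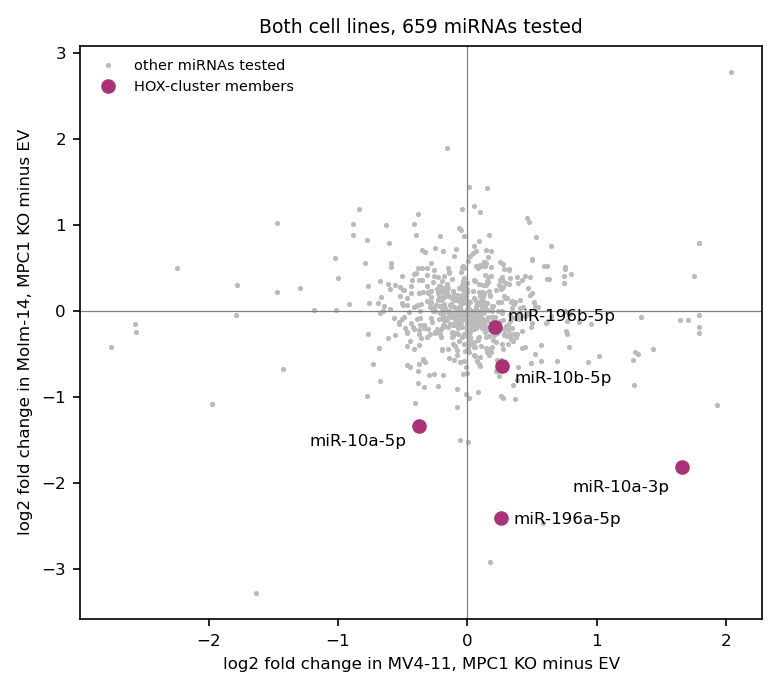
Log2 fold change of MPC1 KO minus EV in MV4-11 (x axis) and Molm-14 (y axis) for the 659 miRNAs tested, with the 5 members as large points. miR-196a-5p at 0.26 and -2.40 and miR-10a-3p at 1.66 and -1.81 lie to the right of 0 and low, miR-10a-5p lies at -0.37 and -1.33, and miR-196b-5p is close to the bulk.

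Ratios of counts within a library do not depend on how libraries are scaled. For each count of hsa-miR-196a-5p there were between 133 and 180 of hsa-miR-196b-5p in Molm-14 EV cells and between 733 and 796 when MPC1 was deleted. In MV4-11 the same ratio ran from 206 to 373 in EV and from 165 to 347 in MPC1 KO, so that those groups overlapped. As a share of the summed miR-196 5p counts, hsa-miR-196a-5p was 0.617% in Molm-14 EV (exact Clopper-Pearson 95% interval 0.531 to 0.712) and 0.132% once MPC1 was deleted (0.0946 to 0.180), with the libraries of a group summed. The intervals cover counting error only.

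hsa-miR-10a-5p made up between 14.3% and 16.0% of its sum with hsa-miR-196b-5p in Molm-14 EV, and between 6.73% and 8.27% after MPC1 deletion. In MV4-11 it was at most 0.379%. hsa-miR-10b-5p was between 2.09% and 2.81% of the miR-10 5p sum in Molm-14 EV cells and between 3.27% and 4.35% when MPC1 was deleted, with no overlap. In MV4-11 it was between 6.35% and 21.2%, from at most 7 counts a library. The 3p strand of miR-10a was between 1.73% and 1.99% of both strands in Molm-14 EV cells and between 0.745% and 2.30% when MPC1 was deleted, and these overlapped.

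**Figure D4:**
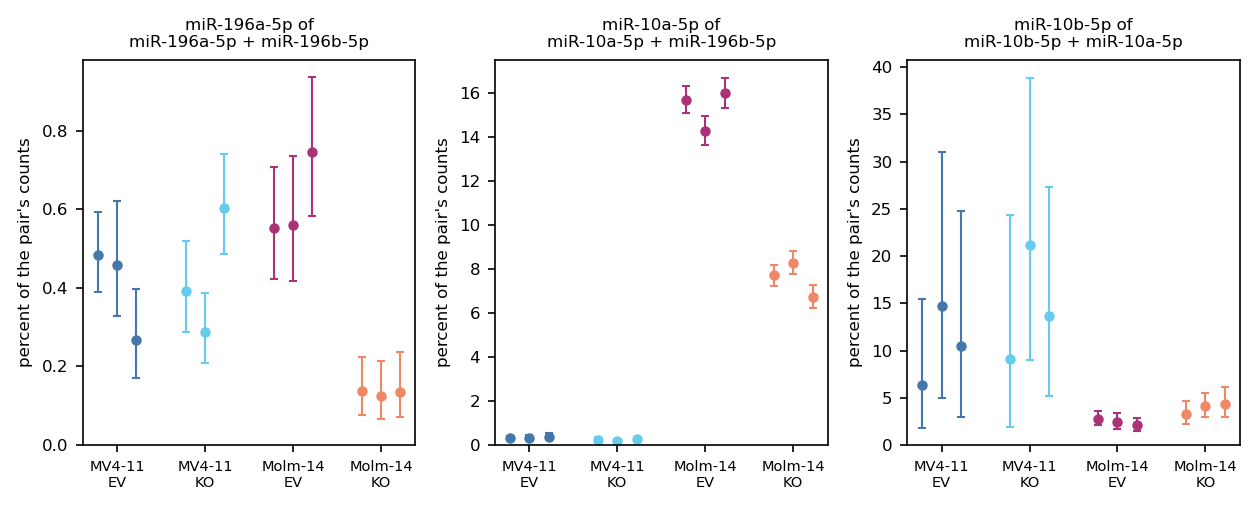
Share of the first miRNA in the summed counts of the pair named over each panel, in percent, 1 point per library with its exact Clopper-Pearson 95% interval. miR-196a-5p takes between 0.125% and 0.136% in the Molm-14 MPC1 KO libraries and at least 0.268% elsewhere, miR-10a-5p takes at least 6.73% in Molm-14 and at most 0.379% in MV4-11, and the miR-10b-5p shares in MV4-11 have wide intervals.

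Other arms of HOX-cluster hairpins were tested in the same fit over all 659 miRNAs. They too were listed with earlier results of these counts known, so their p-values are not independent of that choice. They were hsa-miR-196b-3p, hsa-miR-615-3p and hsa-miR-615-5p, with hsa-miR-196a-3p below the filter on low counts. The names hsa-miR-10b-3p and hsa-miR-196a-1-3p were not found among the miRNAs counted. hsa-miR-615-3p comes from MIR615 in the HOXC cluster (chr12:54033950-54034045, plus strand), in introns of HOXC4 and HOXC5, 42.1 kb from MIR196A2. It had 208, 116 and 95 counts in MV4-11 EV, 160, 194 and 147 in MV4-11 MPC1 KO, 2339, 1590 and 1542 in Molm-14 EV and 1450, 1596 and 1192 in the Molm-14 cells without MPC1.

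Like hsa-miR-10a-5p, hsa-miR-615-3p was far higher in Molm-14 EV than in MV4-11 EV, 412.7 ± 60.8 against 24.8 ± 1.83 CPM (SD, n = 3 each), with a log2 difference of 4.05 (SE 0.13, edgeR adjusted p = 2.2e-18). It fell in Molm-14 MPC1 KO to 277.7 ± 16.1 CPM, a log2 fold change of -0.57 (SE 0.11, edgeR adjusted p = 0.00153), with no overlap. In MV4-11 it showed a log2 fold change of 0.26 (SE 0.14, edgeR adjusted p = 0.411), with overlapping libraries. Molm-14 minus MV4-11, the effects differed by -0.84 (SE 0.18, edgeR adjusted p = 0.00499). The other strand, hsa-miR-615-5p, had 34, 15 and 28 counts in Molm-14 EV, 19, 21 and 9 after deletion of MPC1 there, and at most 2 in an MV4-11 library. Its log2 fold change in Molm-14 was -0.85 (SE 0.35, edgeR adjusted p = 0.154).

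hsa-miR-196b-3p, the passenger strand of the HOXA hairpin, had between 22 and 63 counts in every library. Its log2 difference between the EV cells was -0.27 (SE 0.24, edgeR adjusted p = 0.351). In Molm-14 the log2 fold change upon MPC1 deletion was 0.37 (SE 0.24, edgeR adjusted p = 0.431) and in MV4-11 it was -0.12 (SE 0.23, edgeR adjusted p = 0.907), with overlapping libraries in both lines. hsa-miR-196a-3p, which the table places at MIR196A2 and not at MIR196A1, had between 1 and 3 counts in each of the 6 MV4-11 libraries and 0 in each of the 6 Molm-14 libraries. A count of 0 allows up to 0.775 CPM in the Molm-14 library with the fewest counts, and both lines lie at or under 3 counts, so no fold is given.

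Lists of related miRNAs were described by their counts of calls by edgeR. Over all tested, 1.97% passed as higher and 1.06% as lower in MV4-11. In Molm-14, 2.73% passed as higher and 4.10% as lower, 6.83% in either direction. Between the EV cells, 33.5% passed as higher in Molm-14 and 28.4% as lower, 61.9% in either direction. The effect differed between the lines for 6.68%.

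Of the 9 let-7 and miR-98 5p miRNAs, 1 passed as higher in MV4-11 and 1 as lower in Molm-14, the effect differed between the lines for 2, and 5 were higher and 1 lower in Molm-14 EV. Both calls upon deletion were hsa-let-7e-5p, at 1.43 (SE 0.11) in MV4-11 and -0.44 (SE 0.10) in Molm-14. It is not among the 8 that hold the miR-196 seed letters at bases 3 to 9. The effect differed for hsa-let-7e-5p and for hsa-let-7b-5p, which does hold those letters. The median log2 fold change of the 9 in Molm-14 was -0.10, against -0.01 over all tested. Of the 5p strands of miR-99a, miR-99b and miR-100, sequence relatives of miR-10, and of miR-125a and miR-125b, their cluster partners, 3 passed as lower in Molm-14, and the median of the 5 was -0.49. In MV4-11, 2 of these passed as higher and 1 as lower, and the effect differed between the lines for 2. hsa-miR-125a-5p passed as higher in MV4-11 (1.32, SE 0.13) and as lower in Molm-14 (-0.49, SE 0.12). hsa-miR-100-5p passed as lower in both lines (-0.68 and -0.82). The mature sequences of miR-99b, let-7e and miR-125a lie together on chromosome 19, between bases 51692618 and 51693291. Their calls, split over both lists here, are therefore not calls at separate loci. All 5 of the miR-99, miR-100 and miR-125 strands passed as higher in Molm-14 EV than in MV4-11 EV. For hsa-miR-125b-5p the log2 difference was 6.68 (SE 0.67). Whether any of them reached the filter's minimum count in Molm-14 only was not checked, so these calls may not be independent of the filter.

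Of 18 tested miRNAs that are described in KMT2A-rearranged or HOX-high leukemia and lie outside the HOX clusters, 0 passed in MV4-11 by edgeR, with 5 at an unadjusted p under 0.05, while 2 passed by DESeq2 and 1 by limma-voom. In Molm-14, 1 was higher and 1 lower by edgeR and by limma-voom, and 3 were higher and 1 lower by DESeq2, which gave an adjusted p for 15 of them. Between the EV cells, 8 were higher and 7 lower in Molm-14. Their median log2 fold change in Molm-14 was 0.09. The effect differed between the lines for 4 of the 18. hsa-miR-146a-5p, a repressor of NF-kB signaling, had the largest change of the 18 in Molm-14, a log2 fold change of -0.74 (SE 0.10), and is named for that size.

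The miRNAs whose levels ran most like each member over the 12 libraries were found by Pearson's r of log2 CPM. For hsa-miR-10a-5p these were hsa-miR-584-5p (r = 0.997), hsa-miR-26a-2-3p (r = 0.996) and hsa-miR-296-3p (r = 0.996). Within the 6 libraries of a line the r with hsa-miR-584-5p was 0.79 in MV4-11 and 0.99 in Molm-14. For hsa-miR-10b-5p they were hsa-miR-128-1-5p (r = 0.985), hsa-miR-4661-5p (r = 0.985) and the HOXC miRNA hsa-miR-615-3p (r = 0.983). The r with hsa-miR-615-3p was 0.02 within MV4-11 and 0.98 within Molm-14. In MV4-11 hsa-miR-10b-5p had at most 7 counts a library, so the value there says little. For hsa-miR-10a-3p the nearest was hsa-miR-335-3p (r = 0.964).

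For hsa-miR-196a-5p the nearest was hsa-miR-26b-5p with an r of 0.879, which was -0.22 within MV4-11 and 0.99 within Molm-14. For hsa-miR-196b-5p it was hsa-miR-361-5p with an r of 0.852, which was 0.88 within MV4-11 and 0.71 within Molm-14. These values describe libraries that fall into 2 cell lines and 2 genotypes, share their scaling and are not independent, and a high r over all 12 can come from the difference between the lines.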

How the data were processed

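Small RNA was sequenced from 12 libraries, 3 per line and genotype. The authors deposited raw counts, whole numbers of reads per mature miRNA, with no normalization. The submitters' processing notes name STAR 2.5.2, featureCounts 1.5.1 and GRCh38. Groups were taken from the sample labels. Nothing says whether replicates came from separate cultures, so p-values measure only the spread between these libraries, which may be technical.

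Low counts were removed by filterByExpr (minimum count 10), libraries were scaled by TMM (factors 0.940 to 1.08), and the 4 groups were fitted together by the robust quasi-likelihood method of edgeR 4.0.16 in R 4.3.3. Benjamini-Hochberg adjustment covered the 659 miRNAs tested, threshold 0.05. Total counts ran from 3870104 to 8683456, and a count of 0 allows up to 3 counts. Ratios of summed counts have exact 95% intervals that cover counting error only.

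The members and lists were chosen with earlier results of these counts known. The rule for named miRNAs took the 5 members, the other arms of the HOX-cluster hairpins, sequence relatives and leukemia miRNAs as counts, and the 3 most correlated miRNAs per member. The alternatives were other scalings and filters, DESeq2 1.42.0, limma-voom (limma 3.58.1), each line alone, a replicate block, summed near-identical pairs and leaving out each library. Hairpins were placed by GENCODE annotation and mature sequences by RefSeq, both on GRCh38.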

Additional observations from a re-analysis of the deposited data

Results flagged for a closer look

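The effect of MPC1 deletion differed between the cell lines, by edgeR, for 3 of the 8 HOX-cluster miRNAs tested. Of all 659 miRNAs tested, 6.68% passed for this difference in either direction and 4.25% as lower. Subtracting the MV4-11 log2 fold change from that in Molm-14 gave -2.67 for hsa-miR-196a-5p, -0.96 for hsa-miR-10a-5p and -0.84 for hsa-miR-615-3p. All 3 were listed with earlier results of these counts known, so their tests are not independent of the choice. That of hsa-miR-10a-5p was -0.78 and did not pass without MV4-11 MPC1 KO replicate 3.

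For hsa-miR-10a-3p and hsa-miR-196b-5p, the MPC1 KO libraries all lay below the EV libraries in Molm-14 and all above them in MV4-11. Of all tested, 14.9% lay all below in Molm-14 and 10.3% all above in MV4-11. The differences between the lines were -3.47 and -0.40, and neither difference passed the threshold by edgeR. That of hsa-miR-10a-3p passed with limma-voom (-3.13) and that of hsa-miR-196b-5p with DESeq2 (-0.40). The value of hsa-miR-10a-3p, like the order of its MV4-11 libraries, rests on 1 count in MV4-11 EV and 4 in MV4-11 MPC1 KO. At this depth a change of hsa-miR-10a-3p in MV4-11 was not detectable.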

How the results depend on the processing

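Over the alternatives, 617 of the named log2 values kept their direction and their side of the threshold, 10 lost and 3 gained a call, and 5 reversed. With a mean of at least 100 counts, 1 member passed in Molm-14 and 1 between the EV cells, since few members were then tested, and 212 miRNAs passed between the EV cells, against 408. hsa-miR-196b-5p between the EV cells became -0.11 with upper-quartile factors, -0.00019 with total counts and -0.023 with that filter. Leaving out each library gave from 12 to 38 miRNAs in MV4-11 and from 22 to 53 for the difference between the lines (lowest without MV4-11 MPC1 KO replicate 3), with 1 to 2 members. In MV4-11, hsa-miR-10b-5p ran from -0.14 to 0.52 and hsa-miR-196a-5p from -0.14 to 0.50. hsa-miR-10a-3p passed for the difference with limma-voom (-3.13), and hsa-miR-196b-5p with DESeq2 (-0.40) and the stricter filter (-0.42). The causes were not tested. Upper-quartile factors moved the median of all miRNAs by -0.11 in MV4-11, 0.18 for the difference and -0.18 between the EV cells. They turned the split from 13 higher and 7 lower to 10 and 15 in MV4-11, and from 18 and 27 to 30 and 23 in Molm-14, and total counts gave 20 and 6 in MV4-11.

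The labels do not say whether replicate numbers pair the libraries. After group means were subtracted, same-numbered EV and MPC1 KO libraries had correlations from -0.13 to 0.09 (MV4-11) and from -0.03 to 0.12 (Molm-14). With 3 libraries in a group, these values cannot decide whether libraries were paired. With the replicate block, 23 miRNAs passed in MV4-11, 52 in Molm-14, 34 for the difference and 347 between the EV cells, and hsa-miR-196a-5p no longer passed between the EV cells (0.40). It also lost that call when 1 of 6 libraries was left out (replicates 2 and 3 of both EV groups, replicate 1 of MPC1 KO in MV4-11 and replicate 2 of it in Molm-14), at values from 0.42 to 0.67. Depth limits what can be said of hsa-miR-10a-3p and hsa-miR-10b-5p in MV4-11.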
